A study of Mus musculus with 18 samples.

Results

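Pinaverium bromide (PB), a calcium channel blocker used as an antispasmodic of the gut, was set against its vehicle in tumor organoids of mouse esophageal squamous carcinoma that carry a guide against Tgfbr2. The comparison takes 6 of the 18 bulk RNA-seq libraries of the series, namely every library of the table that holds the PB experiment, and every gene in it. The PB group (n = 3) was treated with 2 µM PB and the vehicle group (n = 3) was given DMSO. Both groups had the same declared genotype: Trp53-/-, Myc overexpression (Myc OE), a guide against Cdkn2a (sgCdkn2a) and a guide against Tgfbr2 (sgTgfbr2). Organoids are three-dimensional cultures in a basement membrane gel. The tumor organoids were dissociated, replated and cultured for 72 h before treatment. How long PB was present before RNA was taken is not stated in the labels. The medium given for both groups contains 2 µM A83-01, which blocks the type I receptor kinase of TGF-beta, together with EGF, FGF10, R-spondin, Noggin, Wnt-3A conditioned medium and the ROCK inhibitor Y27632.

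The series as a whole asks what loss of Tgfbr2, the type II receptor of TGF-beta, does to esophageal organoids, and its design text names PB as an agent that acts on Smad3 in Tgfbr2-deficient tumors. The 12 other libraries are premalignant and tumor organoids with the Tgfbr2 guide or a control guide (sgScr). Of these, the premalignant sgTgfbr2 (n = 4, in 2 labelled sets of 2) and premalignant sgScr (n = 3) libraries, which share the declared Trp53-/-, Myc OE and sgCdkn2a background, are used below as a comparison of their own. The medium given for these libraries, with either guide, also contains 2 µM A83-01.

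L-type calcium channels let calcium into a cell when its membrane is depolarised, and PB is known for blocking them in smooth muscle. Calcium is also stored in the endoplasmic reticulum (ER), where chaperones such as Hspa5 bind it, and loss of folding capacity there starts the unfolded protein response through the sensors Atf6, Ern1 and Eif2ak3. Phosphorylation of the initiation factor eIF2 by Eif2ak3 or its sister kinases starts the integrated stress response, in which the transcription factor Atf4 and its partner Ddit3 raise genes of amino acid supply. TGF-beta ligands bind Tgfbr2, which activates the type I receptor and, through it, the transcription factors Smad2 and Smad3.

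The 6 libraries held 14993749 to 16506194 counts, with 15570 to 15655 genes detected in PB and 16157 to 16341 in vehicle. Within a group, the chi-square statistic per degree of freedom between libraries was 1.51 to 1.65 in PB and 1.79 to 2.03 in vehicle, against 6.42 to 21.3 within the other groups of the series. The labels do not say whether the libraries of a group are separate cultures, so the p-values rest on library-to-library spread that could be technical alone. Squamous epithelial markers summed to 9113 to 9211 CPM (counts scaled to library size) in PB and 10760 to 10910 in vehicle, with all 10 detected. Markers of other cell types were low in both groups. The fibroblast and endothelial sums lay under 1 CPM throughout, with Col3a1, Lum and Emcn at 0. The columnar and gastric gland list summed to 1.35 to 1.93 CPM in PB and 3.33 to 5.37 CPM in vehicle, with Gkn2, Tff1, Tff2 and Cdx2 at 0 counts in all 6 libraries. The same list summed to 28960 to 31920 CPM in the 2 tumor libraries with sgTgfbr2 outside the PB experiment. Muscle markers summed to 5.28 to 6.76 CPM in PB and 9.18 to 9.55 CPM in vehicle. Immune markers summed to 39.6 to 46.6 CPM in PB and 38.8 to 44.1 CPM in vehicle, nearly all of it Cd68, with Lyz2, Tyrobp and Adgre1 at 0. Neural markers summed to 8.67 to 12.1 CPM in PB and 13.6 to 15.3 CPM in vehicle, mostly Tubb3, which is itself among the tubulin genes described below. The part of these differences in the results below was not tested. In bulk RNA, fewer cells of a type and less RNA per cell cannot be told apart.

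PB changed most of the measured transcriptome by small amounts and a smaller number of genes by a lot. Of 12801 genes tested, 4666 (36.5%) were higher and 4713 (36.8%) were lower in PB than in vehicle at an adjusted p under 0.05, by edgeR's quasi-likelihood test with Benjamini-Hochberg adjustment. At least 2-fold differences were called for 510 genes higher (3.98%) and 1087 lower (8.49%). The median absolute log2 fold change of a called gene was 0.446, and the biological coefficient of variation was 2.16%, so differences far under 2-fold passed. In 9470 genes (74%) all 3 libraries of one group lay above all 3 of the other. Scaling mattered to the split: the factors that equalise most genes put 49.7% of the calls on the higher side, with a median log2 fold change of -0.012 over all genes, while library totals alone moved that median to -0.152 and put 34.9% of the calls on the higher side. With upper-quartile factors the median was -0.10 and the share 40.3%. The counts of each gene group below stand against these shares of all genes, which are repeated for many of the groups described at length. The normalized CPM used from here on are counts scaled to the factor-adjusted library total. A gene's p-value and fold change come from the same fit, a log2 fold change is PB over vehicle with its standard error (SE), and all gene-wise p-values are adjusted over the 12801 genes. For every gene whose 6 values are given below, all 3 PB values lay on one side of all 3 vehicle values. Genes beyond the 5 of the model, the 10 highest, the 10 lowest, the 5 with the smallest p and the leading members of each list were named after their values were seen. All gene lists were chosen with earlier results of these data known, so their counts beside all genes are description and not a test.

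**Figure D1:**
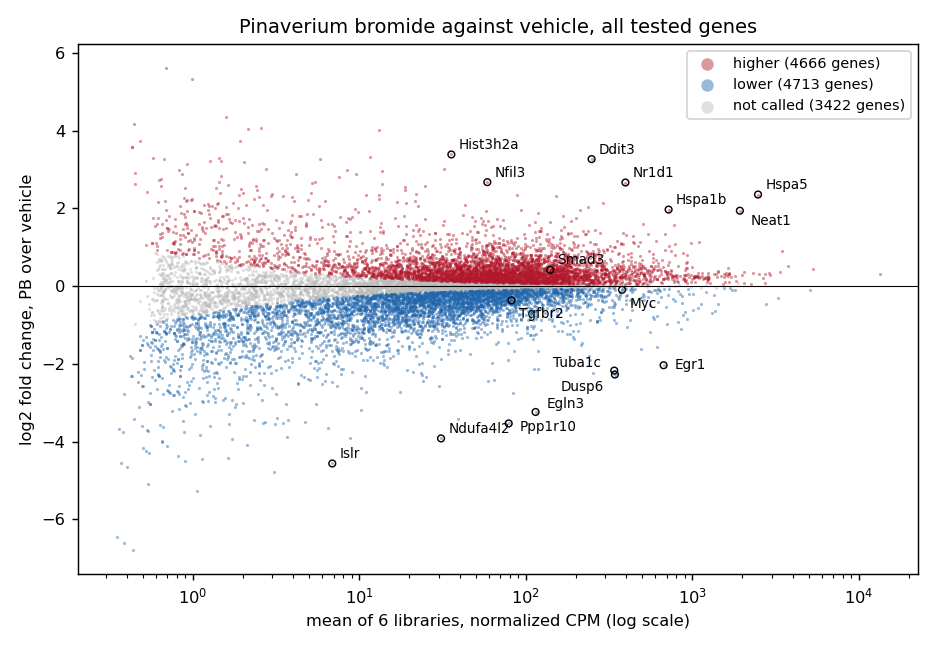
Each point is 1 of 12801 genes, with its mean over the 6 libraries in normalized CPM (log scale) on the x axis and its log2 fold change, PB over vehicle, on the y axis; red genes were higher in PB, blue genes lower, grey genes not called. Ddit3 and Hspa5 stand high among abundant genes and Islr, Ndufa4l2, Ppp1r10 and Egln3 stand low, while Smad3, Tgfbr2 and Myc lie close to the zero line.

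Genes with predicted, clone, pseudogene (-ps) or date symbols were left out of the rankings by fold change and p that follow. Among the other genes with a mean of at least 5 normalized CPM, the highest log2 fold changes belonged to Hist3h2a, Hist3h2ba, Ddit3, H2-K2, Acot2, Fam171b, Nfil3, Tmem74, Nr1d1 and Acox2, from 3.39 down to 2.67. H2-K2 had 58.1, 56.6 and 56.6 normalized CPM in the PB libraries, against 7.12, 6.27 and 7.73 in the vehicle libraries. H2-K2 is annotated as a transcribed pseudogene. It belongs to the class I histocompatibility family, whose near-identical copies can share reads, so its value is uncertain. Acot2 stood at 16.7, 13.8 and 14.2 normalized CPM in PB, against 1.97, 1.49 and 2.14 in vehicle. Acot2 is a mitochondrial acyl-CoA thioesterase and Acox2 a peroxisomal oxidase of branched fatty and bile acid chains. Acox2 measured 9.24, 8.46 and 9.34 normalized CPM in PB, against 1.27, 1.37 and 1.61 in vehicle. In all 3 genes each PB library lay above each vehicle library by several fold.

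The lowest were Islr, Ndufa4l2, Arrb1, Homez, Ppp1r10, Egr3, Egln3, Nlrp10, Gdpgp1 and Bnip3, from -4.56 up to -2.76. Islr had 0.4199, 0.347 and 0.879 normalized CPM in the PB libraries, against 13.4, 13.2 and 12.96 in the vehicle libraries. Ndufa4l2 stood at 3.85, 3.47 and 4.19 normalized CPM in PB, against 59.4, 56.9 and 57.9 in vehicle. Arrb1 had 1.82, 0.833 and 0.677 normalized CPM in the PB libraries, against 16.2, 16.6 and 16.8 in the vehicle libraries. Arrb1 encodes a beta-arrestin that uncouples and internalises G protein-coupled receptors, Ndufa4l2 is a hypoxia-inducible mitochondrial protein, and Islr is a secreted leucine-rich-repeat protein. Ppp1r10 stood at 13.3, 11.5 and 12.9 normalized CPM in PB, against 145, 148 and 143 in vehicle. Ppp1r10 encodes PNUTS, a nuclear subunit of protein phosphatase 1, and was 11.6-fold lower. The 5 further genes with the smallest p were Hspa5, Neat1, Hspa1b, Dusp6 and Egr1. Neat1 measured 3039, 3058 and 3088 normalized CPM in PB, against 766, 789.6 and 835 in vehicle. Neat1 is the long noncoding RNA that builds nuclear paraspeckles, and it was among the most abundant RNAs of the PB libraries.

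The genes named in the genotype, and Smad3, were checked first. All were lower or higher by about 2-fold at most. Tgfbr2 had 72.9, 72.01 and 70.2 normalized CPM in the PB libraries, against 88.95, 90.01 and 97.9 in the vehicle libraries (log2 fold change -0.36 ± 0.041, adjusted p = 4.21e-12 by edgeR). On GRCm38, Tgfbr2 spans bases 116084293 to 116175360 of chromosome 9 (minus strand). Its transcripts were counted in every library, and gene-level counts do not show the edited site. Smad3 stood at 163, 155 and 163 normalized CPM in PB, against 119, 121 and 119.6 in vehicle (log2 fold change 0.42 ± 0.031, adjusted p = 1.71e-19 by edgeR). Smad3, at 63646767 to 63757994 of the same chromosome, was thus higher at the RNA level in every PB library than in every vehicle library. Smad3 activity is a matter of protein phosphorylation and was not measured here. Trp53 had 31.8, 33.9 and 35.2 normalized CPM in the PB libraries, against 71.01, 67.1 and 70.2 in the vehicle libraries (log2 fold change -1.05 ± 0.052, adjusted p = 1.97e-28 by edgeR), although both groups were declared Trp53-/-, and the labels do not say which exons are deleted. Cdkn2a was slightly higher (0.34 ± 0.027) and Myc, which is overexpressed in both groups, slightly lower (-0.09 ± 0.024), both with the groups apart.

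The TGF-beta pathway was examined because the organoids carry the Tgfbr2 guide. Its counts stand against 36.5% higher and 36.8% lower in PB among all genes. Among ligands and latent-form proteins, 4 of 13 tested rose and 4 fell, with a median log2 fold change of 0.08 that library totals turn to -0.06. Tgfb1 stood at 179.7, 169.9 and 172 normalized CPM in PB, against 128, 127 and 140.2 in vehicle (log2 fold change 0.40 ± 0.032). Tgfb3 measured 3.29, 3.68 and 2.503 normalized CPM in PB, against 11.98, 11.5 and 9.27 in vehicle (log2 fold change -1.79 ± 0.15). Tgfb1 and Tgfb3 are ligands, and Thbs1, thrombospondin, which activates latent TGF-beta, fell by 1.64. Ltbp1, which binds latent TGF-beta to matrix, rose by 0.66 ± 0.11, and Itgb6, of the integrin that frees it, by 0.46 ± 0.084. Among 21 receptors and Smads, 12 rose and 4 fell (median 0.20, and 9 against 8 with a median of 0.06 with library totals). Tgfbr1, the type I receptor, did not pass (48.7 ± 2.12 normalized CPM in PB and 50.9 ± 2.59 in vehicle). Ski, a corepressor of Smads, and Zfyve9, which brings Smads to the receptor, rose by 0.52 ± 0.035 and 0.80 ± 0.069, and Smurf2, a ubiquitin ligase of the pathway, fell by 0.44.

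Among 21 tested TGF-beta and SMAD3 targets, 8 rose (38.1%) and 10 fell (47.6%), against 36.5% and 36.8% of all genes, with a median log2 fold change of -0.22. Klf10 had 70.2, 70.3 and 70.6 normalized CPM in the PB libraries, against 142, 146 and 142 in the vehicle libraries (log2 fold change -1.03 ± 0.036). Skil stood at 26.6, 24.6 and 23.00 normalized CPM in PB, against 44.9, 41.2 and 41.8 in vehicle (log2 fold change -0.79 ± 0.064). Klf10 encodes a TGF-beta-inducible factor and Skil a Smad corepressor and feedback target. Junb, 301 ± 5.03 normalized CPM in PB and 544 ± 25.3 in vehicle, is also an immediate early gene, as Klf10 can be, so these lists overlap in what they measure. Other targets rose. Snai2 had 119.5, 116 and 119 normalized CPM in the PB libraries, against 54.2, 56.8 and 50.8 in the vehicle libraries (log2 fold change 1.13 ± 0.041). Cdkn2b stood at 43.4, 44.7 and 45.6 normalized CPM in PB, against 25.9, 28.1 and 29.9 in vehicle (log2 fold change 0.67 ± 0.060). Snai2, or Slug, represses epithelial genes, and Cdkn2b is a cell cycle inhibitor. Smad7, the inhibitory Smad that TGF-beta induces, did not pass (10.8 ± 0.952 normalized CPM in PB and 11.6 ± 1.3 in vehicle). Of 27 targets in the table, 6 did not pass the filter: Mmp9, Snai1, Vim, Zeb1, Zeb2 and Cdh2. In the BMP and ID list, Id1 (12.2 ± 0.963 normalized CPM in PB and 27.04 ± 0.721 in vehicle) and Id2 fell while Id3 (47.96 ± 1.82 normalized CPM in PB and 25.7 ± 1.47 in vehicle) rose, all of them inhibitors of basic helix-loop-helix factors. Bmp4, Nog and Id4 were called higher at low levels, but not in every fit that left out 1 library. The Nog call (adjusted p = 0.0463 by edgeR) was lost in all 6 of them, with an adjusted p of 0.055 to 0.129. Bmp4 (0.0214) lost its call without PB replicate 3 (adjusted p = 0.0749), without vehicle replicate 1 (0.0634) and without vehicle replicate 3 (0.101), all by edgeR. Id4 (0.00433) lost it without PB replicate 1 (adjusted p = 0.0591 by edgeR). DESeq2 called neither Nog (adjusted p = 0.179) nor Bmp4 (adjusted p = 0.111).

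**Figure D2:**
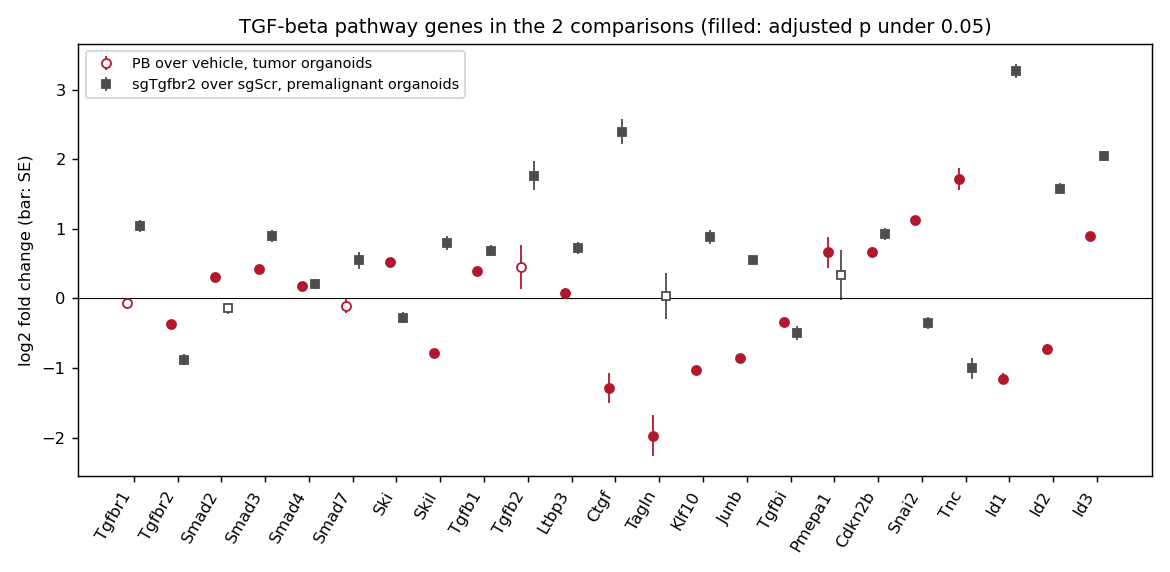
Log2 fold changes with SE (bars) of TGF-beta pathway genes, chosen for display after their values were seen, for PB over vehicle in tumor organoids (red circles) and for sgTgfbr2 over sgScr in premalignant organoids (grey squares); filled symbols passed an adjusted p of 0.05. Id1, Id2, Ctgf, Skil, Klf10 and Junb lie above zero for the guide and below zero for PB, while Smad3, Tgfb1, Cdkn2b and Id3 lie above zero in both.

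The guide's own effect gives a second view of the same genes. In premalignant organoids, sgTgfbr2 over sgScr called 3919 of 13438 genes higher (29.2%) and 4203 lower (31.3%) by edgeR. Smad3 was higher with the guide (0.89 ± 0.086) and higher in PB (0.42 ± 0.031). Of the targets named above, Klf10 was at 0.89 ± 0.10 with the guide and -1.03 ± 0.036 in PB, Skil at 0.80 ± 0.10 and -0.79 ± 0.064, Snai2 at -0.36 ± 0.085 and 1.13 ± 0.041, and Cdkn2b at 0.92 ± 0.085 and 0.67 ± 0.060. Id1 had the widest gap of these, at 3.27 ± 0.10 with the guide and -1.15 ± 0.082 in PB. The 2 effects were fitted in different material, premalignant and tumor, and their difference was not tested.

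Calcium handling genes, the closest to the drug's known target, did not move as a group. Of 30 tested channels and pumps of 47 in the table, 9 rose and 8 fell, against 36.5% and 36.8% of all genes. Their median log2 fold change was 0.02. Library totals turn the counts to 8 and 14 and the median to -0.12. The genes of L-type channel pores were almost silent: over 3 libraries each, Cacna1c had 17 counts in PB and 22 in vehicle, Cacna1s 1 and 5, and Cacna1f 2 and 2, all under the filter. Cacna1d, the fourth, had 39 counts in PB and 3 in vehicle, a ratio of 15.0 with a 95% counting interval of 4.77 to 75.9 that covers counting error only. Both levels lie under 1.1 normalized CPM in every library. Atp2b1 measured 516, 527 and 515 normalized CPM in PB, against 237, 249.7 and 243 in vehicle (log2 fold change 1.10 ± 0.025). Atp2b1 is a calcium pump of the plasma membrane, and Atp2a2, the SERCA pump that fills the ER, rose less. Atp2a2 had 705, 693 and 710.0 normalized CPM in the PB libraries, against 529, 531 and 515 in the vehicle libraries (log2 fold change 0.42 ± 0.023). Mcu, the pore of the mitochondrial calcium uniporter, rose by 0.70 ± 0.044 and Orai2, a store-operated channel, by 0.54 ± 0.054, while Trpm7, a channel kinase, and Stim2, an ER calcium sensor, fell by 0.46 and 0.42. Of 22 calmodulin, calcineurin and NFAT genes, 9 rose and 8 fell, which library totals turn to 6 and 10 with a median of -0.17, against -0.03. Ppp3ca, Ppp3cb, Ppp3cc and Ppp3r1, subunits of calcineurin, rose by 0.55, 0.31, 0.92 and 0.32, and Calm3, a calmodulin gene, and Camkk2 fell by 0.50 and 1.07.

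Genes of protein folding in the ER rose together. Of 28 tested members of the ER chaperone and unfolded protein response list, 21 rose and 3 fell, against 36.5% and 36.8% of all genes, and the median log2 fold change was 0.73, against -0.012 over all genes. Hspa5 stood at 4095, 4229 and 4133 normalized CPM in PB, against 814, 808 and 807 in vehicle (log2 fold change 2.36 ± 0.021, adjusted p = 4.6e-72 by edgeR). Hspa5, also called BiP, is the main Hsp70 chaperone of the ER lumen and the best known readout of the unfolded protein response; it had the smallest p of the 12801 genes and was 5.13-fold higher. Calr had 884, 913 and 894 normalized CPM in the PB libraries, against 469, 472 and 474 in the vehicle libraries. Calr, calreticulin, is a calcium-binding chaperone of glycoproteins. Herpud1 stood at 275, 268 and 284 normalized CPM in PB, against 109, 118 and 108 in vehicle. Herpud1 takes part in ER-associated degradation, and Manf had 190.4, 191 and 193 normalized CPM in PB, against 80.7, 83.99 and 84.8 in vehicle, where Manf is a secreted ER stress protein. Among the sensors, Atf6 rose by 1.45 ± 0.027 on the log2 scale. Atf6 measured 373, 388 and 379 normalized CPM in PB, against 138, 143 and 137 in vehicle. Eif2ak3, which encodes the sensor kinase PERK, fell slightly (-0.30 ± 0.067), as did Sec61b (-0.19 ± 0.050), a subunit of the translocon, and Edem2. Xbp1, the transcript spliced by Ern1, stood at 92.3 ± 4.21 normalized CPM in PB and 93.2 ± 2.3 in vehicle and did not pass the test. Gene-level counts do not show its splicing.

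Many ER chaperone promoters hold the ER stress element, which Atf6 and NF-Y are known to bind. The exact letters CCAAT and CCACG, with 9 bases of any kind between them, were searched on both strands of the 250 bases before each gene's start, in RefSeq promoters of GRCm38.p6, for the 9731 of 12801 tested genes that have one. The element was present in 8 of 17 called higher members of the list that had a promoter (47.1%), namely Hspa5, Hsp90b1, Pdia6, Calr, Canx, Syvn1, Creld2 and Derl3, and in 15 of all 9731 promoters (0.154%). Of all 24 members with a promoter, called or not, 9 held it (37.5%). This and the other motifs below were chosen after the list values were seen. A match describes letters and is not a measured binding site. The promoters of Hspa5 (chr2:34771840-34772089, plus strand), Calr (chr8:84846932-84847181, minus strand) and Hsp90b1 (chr10:86705445-86705694, minus strand) are shown because their genes carry the ER result at high abundance, with the element in capitals:
Hspa5: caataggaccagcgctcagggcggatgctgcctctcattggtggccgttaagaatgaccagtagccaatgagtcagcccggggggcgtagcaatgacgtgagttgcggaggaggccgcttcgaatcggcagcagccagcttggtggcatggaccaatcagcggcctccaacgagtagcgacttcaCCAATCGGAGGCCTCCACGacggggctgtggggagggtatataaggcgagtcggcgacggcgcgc
Calr: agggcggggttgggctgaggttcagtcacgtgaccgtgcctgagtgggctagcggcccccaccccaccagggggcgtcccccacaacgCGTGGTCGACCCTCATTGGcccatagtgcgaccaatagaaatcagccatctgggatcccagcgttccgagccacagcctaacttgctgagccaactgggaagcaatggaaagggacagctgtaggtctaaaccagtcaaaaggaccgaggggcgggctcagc
Hsp90b1: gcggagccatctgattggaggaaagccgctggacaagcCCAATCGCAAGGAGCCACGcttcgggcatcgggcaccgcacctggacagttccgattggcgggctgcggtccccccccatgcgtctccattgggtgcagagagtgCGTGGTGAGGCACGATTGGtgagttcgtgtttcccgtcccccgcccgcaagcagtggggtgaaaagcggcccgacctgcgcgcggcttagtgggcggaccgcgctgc
The match in Hspa5 begins 65 bases before the gene start and that in Calr 162 bases before it, while Hsp90b1, which encodes the ER form of Hsp90, has 2 matches, at 212 and 107 bases. Hsp90b1 had 1157, 1186 and 1192 normalized CPM in the PB libraries, against 665, 689 and 672 in the vehicle libraries (log2 fold change 0.80 ± 0.022).

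Genes of the integrated stress response rose as well. Of 36 tested members, 31 rose and 3 fell, against 36.5% and 36.8% of all genes, with a median log2 fold change of 0.92. Of the 31, 16 rose at least 2-fold, against 3.98% of all genes. Ddit3 stood at 449, 448 and 453 normalized CPM in PB, against 48.4, 45.3 and 46.1 in vehicle (log2 fold change 3.27 ± 0.032, adjusted p = 1.5e-69 by edgeR). Ddit3, or CHOP, is a transcription factor linked to cell death under ER stress, and the PB libraries held 9.65-fold more of its RNA. Slc3a2 had 1174, 1152 and 1150 normalized CPM in the PB libraries, against 392, 386 and 394 in the vehicle libraries. Slc7a5 stood at 569, 567 and 561 normalized CPM in PB, against 224, 230.4 and 232 in vehicle. Slc3a2 and Slc7a5 form the heavy and light chains of a large neutral amino acid transporter. Cth measured 185, 188 and 187 normalized CPM in PB, against 49.2, 50.9 and 52.7 in vehicle. Cth, cystathionine gamma-lyase, makes cysteine, and Mthfd2, a mitochondrial folate enzyme, rose by 1.36 ± 0.026. Atf4 itself rose less. Atf4 had 741, 749.5 and 736 normalized CPM in the PB libraries, against 424, 419 and 408 in the vehicle libraries (log2 fold change 0.83 ± 0.023).

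The exceptions were all called: Atf3, Ddit4 and Slc38a2. Atf3 stood at 113, 118 and 117 normalized CPM in PB, against 318, 316 and 319 in vehicle (log2 fold change -1.45 ± 0.028). Atf3 is a stress-inducible factor that is also an immediate early gene, and each PB library lay far below each vehicle library. Ddit4 had 348, 339 and 337 normalized CPM in the PB libraries, against 526, 507 and 531 in the vehicle libraries (log2 fold change -0.61 ± 0.024). Ddit4, also called REDD1, restrains mTORC1. Slc38a2, a glutamine transporter, was lower by a small margin (-0.08 ± 0.023). Chac1 (32.2 ± 2.33 normalized CPM in PB and 33.4 ± 2.9 in vehicle) and Sesn2 (39.9 ± 1.66 normalized CPM in PB and 42.7 ± 1.72 in vehicle) did not pass.

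Cytosolic tRNA synthetases, which charge tRNAs with amino acids and of which several are Atf4 targets, rose as a family. Of 20 tested, 19 rose and none fell, against 36.5% and 36.8% of all genes, with a median log2 fold change of 0.77, and 6 rose at least 2-fold, against 3.98%. Nars stood at 973, 991 and 970.0 normalized CPM in PB, against 379, 383 and 392 in vehicle (log2 fold change 1.35 ± 0.023). Aars measured 609, 609 and 594 normalized CPM in PB, against 267, 275 and 284 in vehicle (log2 fold change 1.13 ± 0.025). Gars, Iars and Eprs, which charge glycine, isoleucine and both glutamate and proline, rose by 1.11, 1.02 and 0.91 on the log2 scale. Dars, the aspartate enzyme, did not pass (-0.01 ± 0.033).

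The amino acid response element of Atf4 was searched as TGATGNAA, both strands, in the same 250-base windows. It was present in 7 of 26 called higher integrated stress response genes with a promoter (26.9%), in 3 of 11 called higher tRNA synthetase genes (27.3%), and in 233 of 9731 promoters (2.39%). With members counted whether called or not, the shares were 9 of 31 (29%) and 3 of 12 (25%). The motif share of the integrated stress list was thus no higher among called members. Slc7a11, the cystine transporter (chr3:50443614-50443863, minus strand), and Asns, asparagine synthetase (chr6:7693210-7693459, minus strand), are shown as members with the element close to the start, the element in capitals:
Slc7a11: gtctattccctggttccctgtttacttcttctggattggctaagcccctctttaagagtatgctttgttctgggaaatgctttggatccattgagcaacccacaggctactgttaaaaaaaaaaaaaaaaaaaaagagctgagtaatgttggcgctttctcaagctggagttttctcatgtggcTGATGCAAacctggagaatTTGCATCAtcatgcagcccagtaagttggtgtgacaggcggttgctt
Asns: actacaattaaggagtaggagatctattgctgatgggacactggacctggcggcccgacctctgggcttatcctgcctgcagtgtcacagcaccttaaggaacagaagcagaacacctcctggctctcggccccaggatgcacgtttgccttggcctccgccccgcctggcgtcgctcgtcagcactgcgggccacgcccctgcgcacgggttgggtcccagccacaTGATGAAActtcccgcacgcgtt
The Slc7a11 window holds 2 matches, 66 and 47 bases before the gene start, and the Asns window 1, at 23 bases. Slc7a11 had 849, 835 and 829 normalized CPM in the PB libraries, against 369, 379.8 and 371 in the vehicle libraries (log2 fold change 1.17 ± 0.023). Asns stood at 605, 610.2 and 611 normalized CPM in PB, against 271, 279 and 289 in vehicle (log2 fold change 1.12 ± 0.025).

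**Figure D3:**
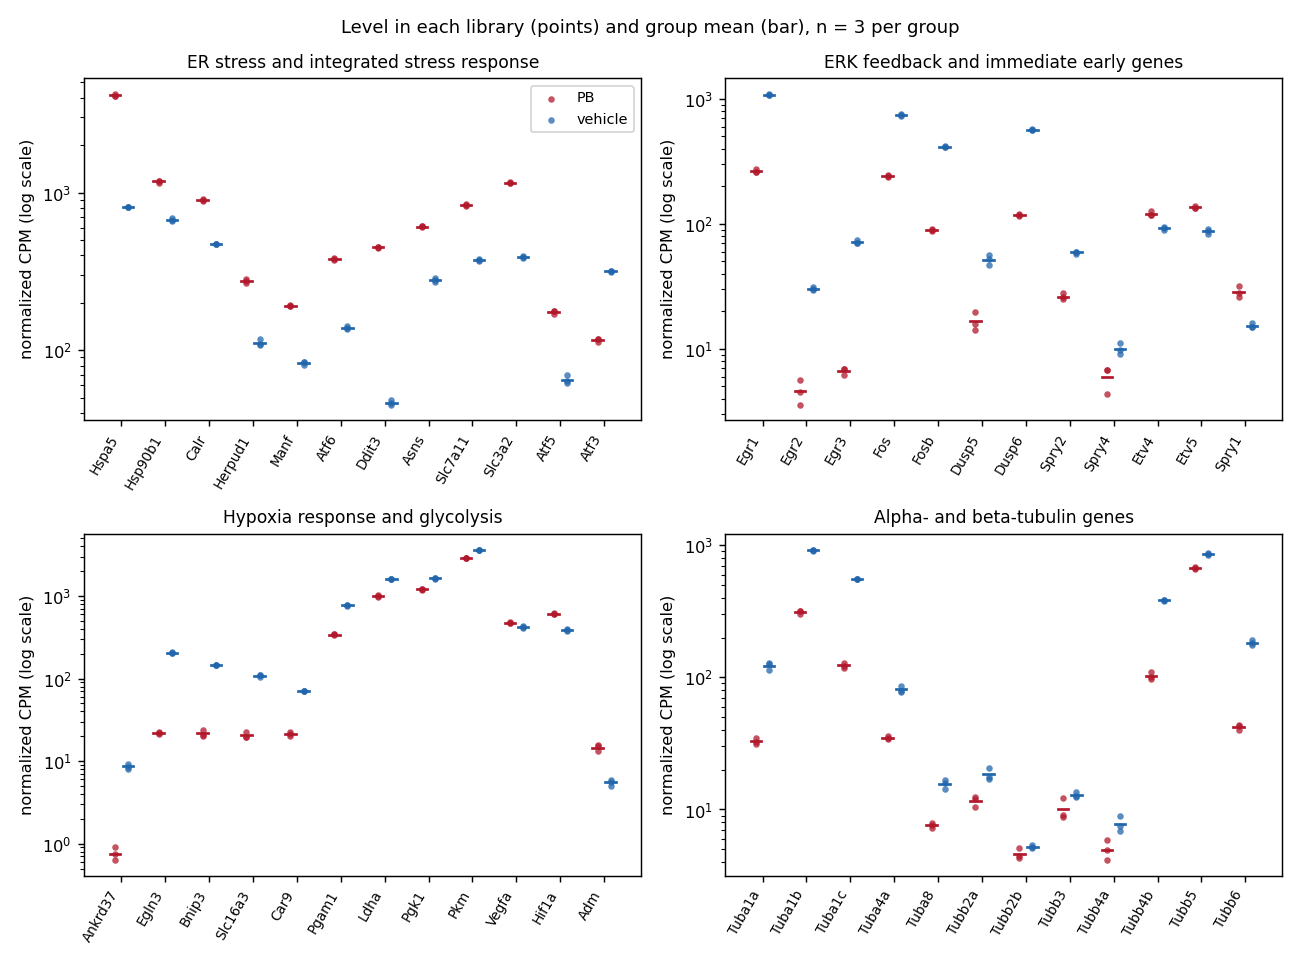
Normalized CPM (log scale) of single libraries (points) and group means (bars), PB in red left of vehicle in blue, for 12 genes of each of 4 groups, chosen for display after their values were seen. The ER and integrated stress panel lies higher in PB except Atf3; the immediate early, hypoxia and tubulin panels lie mostly lower in PB, with Etv4, Etv5, Spry1, Vegfa, Hif1a and Adm higher.

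Cytosolic heat shock genes rose less evenly. Of 18 tested members 14 rose and 3 fell, against 36.5% and 36.8% of all genes, with a median log2 fold change of 0.34. Hspa1b had 1155, 1149 and 1138 normalized CPM in the PB libraries, against 292, 287 and 299.5 in the vehicle libraries (log2 fold change 1.97 ± 0.023). Hspa1a stood at 471, 483 and 477 normalized CPM in PB, against 110.0, 106 and 107 in vehicle (log2 fold change 2.15 ± 0.028). Hspa1a and Hspa1b are near-identical stress-inducible Hsp70 genes, so how reads were divided between them is uncertain. Hsph1, an Hsp110 exchange factor, rose by 1.42 ± 0.034, Hspb1, a small heat shock protein, by 0.97 ± 0.026 and Dnaja1, an Hsp40 cochaperone, by 0.59 ± 0.027. Bag3, a cochaperone that Hsf1 is known to induce, was 1 of the 3 that fell. Bag3 measured 83.2, 89.1 and 80.4 normalized CPM in PB, against 118, 115 and 116 in vehicle (log2 fold change -0.46 ± 0.037). Chordc1 and Hspa8, the constitutive Hsp70, fell too, by 0.31 and 0.09 on the log2 scale. The heat shock letters GAANNTTC, read on both strands, occurred in 6 of 11 called higher members with a promoter (54.5%) and in 578 of 9731 promoters (5.94%). Of all 14 members with a promoter, called or not, 6 held them (42.9%). The Hspa1b window (chr17:34959239-34959488, minus strand) is shown as the most abundant inducible member, with its match, 104 bases before the start, in capitals:
Hspa1b: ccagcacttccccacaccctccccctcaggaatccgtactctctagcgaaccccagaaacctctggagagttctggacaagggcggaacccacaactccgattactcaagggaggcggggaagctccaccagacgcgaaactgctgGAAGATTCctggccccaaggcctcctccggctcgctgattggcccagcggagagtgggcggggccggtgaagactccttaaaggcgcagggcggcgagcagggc

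Genes of protein synthesis and breakdown rose by small steps. Cytosolic ribosomal proteins rose in 71 of 78 tested genes and fell in 3, against 36.5% and 36.8% of all genes. Their median log2 fold change was 0.23, which library totals alone bring to 0.09 with 55 higher and 9 lower. Rpl12 had 1600, 1605 and 1677 normalized CPM in the PB libraries, against 1243, 1239 and 1219 in the vehicle libraries. Rplp2 stood at 1014, 1028 and 1043 normalized CPM in PB, against 765, 793 and 767 in vehicle. Rpl34 had the widest change of the list (2.90 ± 0.22) at under 10 normalized CPM, a level far from that of its family; ribosomal protein genes have many processed copies that can take their reads, so its value is uncertain. Proteasome subunits rose in 28 of 37 and fell in 5, with a median of 0.20, which library totals bring to 17 higher and 8 lower with a median of 0.06. Psmc2 had 134, 148 and 152 normalized CPM in the PB libraries, against 81.8, 83.9 and 84.7 in the vehicle libraries (log2 fold change 0.80 ± 0.037). Psmc2 and Psmc6 are ATPases of the proteasome's regulatory particle, and Psmc6 rose by 0.60 ± 0.030. The 3 subunits of the interferon-inducible immunoproteasome, Psmb8, Psmb9 and Psmb10, were among the 5 that fell. Psmb9 stood at 11.3, 10.8 and 10.6 normalized CPM in PB, against 15.97, 15.3 and 14.2 in vehicle.

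Lysosome and autophagy genes rose more often than they fell, against 36.5% higher and 36.8% lower among all genes. Of 15 V-ATPase subunits, which acidify the lysosome, 14 rose and only Atp6v0a2 fell, with a median log2 fold change of 0.30. Atp6v1b2 measured 304, 301 and 304 normalized CPM in PB, against 187, 177 and 182 in vehicle (log2 fold change 0.74 ± 0.027). Atp6v0b had 146, 156 and 159.8 normalized CPM in the PB libraries, against 88.5, 91.4 and 86.9 in the vehicle libraries (log2 fold change 0.79 ± 0.035). Of 45 lysosomal enzymes and membrane proteins, 24 rose and 8 fell (median 0.20), a balance that library totals bring to 20 and 14 (median 0.06). Neu1 stood at 63.7, 62.7 and 63.1 normalized CPM in PB, against 26.1, 23.8 and 24.97 in vehicle (log2 fold change 1.34 ± 0.056). Neu1 is a lysosomal sialidase. Flcn and Fnip1, partners in the folliculin complex that controls the lysosomal transcription factors Tfeb and Tfe3, rose by 1.21 ± 0.053 and 1.08 ± 0.038. Ctsc, a cathepsin, and Gpnmb, a glycoprotein induced by lysosomal stress, rose by 1.06 ± 0.028 and 1.03 ± 0.046, and Gusb and Naglu, which break down glycosaminoglycans, fell by 0.63 and 0.58. Of 25 autophagy genes 18 rose and 3 fell (median 0.24), or 13 and 6 with library totals. Sqstm1 had 346, 353 and 352 normalized CPM in the PB libraries, against 169, 161 and 165 in the vehicle libraries (log2 fold change 1.09 ± 0.027). Sqstm1 encodes the cargo receptor p62, and Atg12, Gabarapl1 and Becn1, of the machinery that forms the autophagosome, rose by 0.81, 0.68 and 0.60. Bnip3 and Bnip3l, mitophagy receptors that hypoxia induces, were 2 of the 3 that fell.

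Sterol synthesis genes and other targets of the transcription factor SREBP2 rose in 20 of 25 cases and fell in 2. Of all genes 36.5% rose and 36.8% fell, and the median log2 fold change of the list was 0.33. Lss stood at 330.2, 334 and 329 normalized CPM in PB, against 154, 151 and 148 in vehicle (log2 fold change 1.13 ± 0.027). Insig1 measured 196, 188 and 184 normalized CPM in PB, against 94.1, 92.7 and 93.99 in vehicle (log2 fold change 1.02 ± 0.032). Lss makes lanosterol, the first sterol of the pathway, and Insig1 helps to hold SREBP2 in the ER. Fdps and Cyp51, enzymes that act before and after Lss, rose by 0.69 and 0.52. Sc5d, a late desaturase, fell (-0.26 ± 0.035). Fatty acid synthesis genes were split, with 11 of 18 higher and 5 lower (median 0.22, and 8 against 7 with library totals). Scd1, Fads1 and Fads2, all desaturases, rose by 0.55, 0.46 and 0.39, while Fasn, the fatty acid synthase, and Elovl6, an elongase, fell by 0.47 and 0.70. Npc1, which exports cholesterol from the lysosome, rose by 0.55 ± 0.038, and Abca1, the LXR-driven sterol exporter, fell. Abca1 had 2.099, 1.25 and 2.71 normalized CPM in the PB libraries, against 5.96, 6.46 and 5.95 in the vehicle libraries.

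Genes induced by low oxygen and genes of glycolysis fell together. Of 29 tested members 25 fell and 4 rose, against 36.8% and 36.5% of all genes, with a median log2 fold change of -0.67, and 10 fell at least 2-fold, against 8.49%. Egln3 stood at 22.3, 22.1 and 21.5 normalized CPM in PB, against 209, 205 and 206 in vehicle (log2 fold change -3.24 ± 0.042, adjusted p = 5.47e-62 by edgeR). Egln3 is a prolyl hydroxylase that Hif1a induces and that marks Hif1a for breakdown. Bnip3 had 19.9, 20.9 and 24.2 normalized CPM in the PB libraries, against 147, 147 and 147 in the vehicle libraries (log2 fold change -2.76 ± 0.048). Slc16a3 stood at 22.3, 19.4 and 19.8 normalized CPM in PB, against 109, 106 and 111 in vehicle (log2 fold change -2.41 ± 0.052). Slc16a3 exports lactate. Among the enzymes, Pgam1 had the smallest p. Pgam1 measured 334, 344 and 348 normalized CPM in PB, against 775, 783 and 762 in vehicle (log2 fold change -1.18 ± 0.024). Ldha had 985, 1021 and 1002 normalized CPM in the PB libraries, against 1619, 1615 and 1629 in the vehicle libraries (log2 fold change -0.69 ± 0.021). Ldha makes lactate, and P4ha1, a collagen prolyl hydroxylase, fell by 1.16. The members that rose were Hif1a, Adm, Vegfa and Pfkfb3. Hif1a stood at 620.2, 614 and 611 normalized CPM in PB, against 376, 396 and 385 in vehicle (log2 fold change 0.67 ± 0.024). Hif1a is regulated mainly by protein stability, which RNA does not show. Adm had 15.2, 13.2 and 15.5 normalized CPM in the PB libraries, against 5.96, 5.59 and 4.99 in the vehicle libraries (log2 fold change 1.41 ± 0.12). The core letters ACGTG of the hypoxia response element, on both strands, occurred in 16 of 24 called lower members with a promoter (66.7%), Egln3, Bnip3, Slc16a3, Pgam1 and Ldha among them, and in 2446 of 9731 promoters (25.1%). The share was no lower over all members with a promoter, at 19 of 28 (67.9%).

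Immediate early genes and feedback genes of the ERK pathway are switched on by growth factors such as EGF within minutes. Of 33 tested, 21 fell and 7 rose in PB, against 36.8% and 36.5% of all genes. Their median log2 fold change was -0.55, and 12 fell at least 2-fold, against 8.49% of all genes. Egr1 stood at 258, 274 and 259.5 normalized CPM in PB, against 1094, 1069 and 1077 in vehicle (log2 fold change -2.03 ± 0.024). Dusp6 measured 119.9, 116 and 117 normalized CPM in PB, against 569.5, 567 and 567 in vehicle (log2 fold change -2.27 ± 0.027). Fosb had 88.7, 87.7 and 90.2 normalized CPM in the PB libraries, against 423, 408 and 412 in the vehicle libraries (log2 fold change -2.22 ± 0.029). Egr1 and Fosb are immediate early transcription factors, and Dusp6 is a phosphatase that turns off ERK. Fos stood at 238, 243 and 247 normalized CPM in PB, against 751, 740.4 and 731 in vehicle (log2 fold change -1.61 ± 0.024). Egr3 had 6.16, 6.87 and 6.9 normalized CPM in the PB libraries, against 69.7, 74.1 and 70.5 in the vehicle libraries (log2 fold change -3.42 ± 0.074). Other members went the other way: Etv5, a transcription factor downstream of FGF and ERK, and Dusp7 rose. Etv5 stood at 140.2, 135 and 133 normalized CPM in PB, against 82.2, 88.5 and 90.5 in vehicle (log2 fold change 0.64 ± 0.036). Dusp7 measured 340.2, 327 and 318 normalized CPM in PB, against 244, 239.9 and 248 in vehicle (log2 fold change 0.43 ± 0.026). Spry2 and Spry1, both feedback inhibitors of receptor tyrosine kinases, moved oppositely, at -1.17 ± 0.057 and 0.90 ± 0.079. The CArG box, bound by serum response factor, occurred in 2 of 14 called lower members with a promoter (14.3%), Egr2 and Dusp5, and in 135 of 9731 promoters (1.39%). Of all 24 members with a promoter, called lower or not, 2 held it (8.33%). The EGF-family and ErbB list was mixed, with 6 of 16 higher and 7 lower: the ligands Hbegf and Tgfa fell by 0.62 and 0.66, the receptor Erbb2 fell by 0.79, and Egfr rose by 0.30 ± 0.029.

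**Figure D4:**
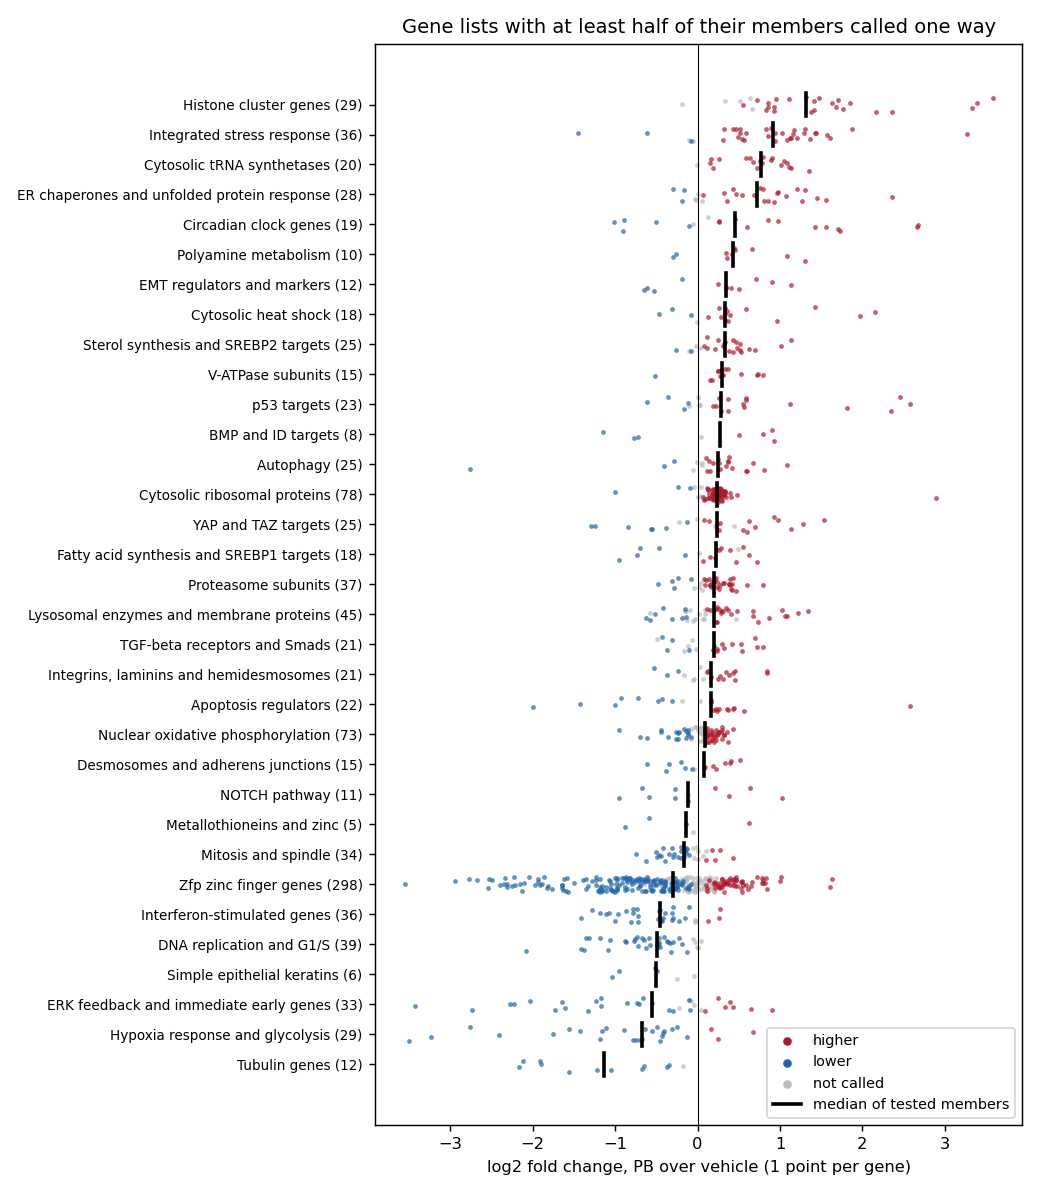
Log2 fold change, PB over vehicle, of each tested gene (points; red higher, blue lower, grey not called) in the lists with 50% or more of their tested members called in one direction, ordered by the list's median (black bar), with the number tested in brackets. Histone, integrated stress, tRNA synthetase and ER lists stand at the top, and tubulin, hypoxia, immediate early and simple keratin lists at the bottom.

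The DNA replication and G1/S list fell without an exception among its calls. Of 39 tested members 34 fell and none rose, against 36.8% and 36.5% of all genes, with a median log2 fold change of -0.49. Ccnd1 had 453, 459.5 and 445 normalized CPM in the PB libraries, against 779, 772 and 763 in the vehicle libraries (log2 fold change -0.77 ± 0.023). Ccnd1, cyclin D1, drives entry into S phase. Rrm2 stood at 39.5, 36.9 and 34.6 normalized CPM in PB, against 86.1, 85.3 and 80.9 in vehicle (log2 fold change -1.19 ± 0.049). Mcm10 had 21.7, 17.7 and 20.2 normalized CPM in the PB libraries, against 51.8, 51.2 and 51.5 in the vehicle libraries (log2 fold change -1.37 ± 0.064). Rrm2 is a subunit of ribonucleotide reductase and Mcm10 an initiation factor, and Mcm7, of the replicative helicase, and Uhrf1, which maintains DNA methylation, fell by 0.87 and 0.88. The E2F letters GCGGGAAA, on both strands, occurred in 3 of 27 called lower members with a promoter (11.1%) and in 193 of 9731 promoters (1.98%). Of all 31 members with a promoter, called or not, 3 held them (9.68%). Mitosis and spindle genes fell by less, in 22 of 34 cases (64.7%) with 5 higher (14.7%), against the same shares of all genes. Their median was -0.16. Cenpf stood at 122, 123 and 120.4 normalized CPM in PB, against 185, 191 and 187 in vehicle (log2 fold change -0.63 ± 0.030). Cenpf and Ndc80 are kinetochore proteins, and Ndc80 fell by 0.75, while Cenpa, the centromeric histone, rose by 0.43 ± 0.029.

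Histone cluster genes rose against the direction of the other replication genes. Of 67 in the table, 29 passed the filter on low counts, and of these 24 rose and none fell, against 36.5% and 36.8% of all genes. Their median log2 fold change was 1.31, and 16 rose at least 2-fold, against 3.98% of all genes. With the 54 genes that DESeq2 gave an adjusted p, 18 rose and none fell, with a median of 0.96, so the share that rose depends on the filter. Because a gene could pass that filter through the group where it is high, the count describes the genes that passed. Hist3h2a measured 65.6, 64.4 and 65.5 normalized CPM in PB, against 5.61, 5.53 and 7.49 in vehicle (log2 fold change 3.39 ± 0.078). Hist3h2ba had 21.3, 21.9 and 19.96 normalized CPM in the PB libraries, against 2.32, 2.297 and 1.67 in the vehicle libraries (log2 fold change 3.32 ± 0.13). Hist1h2bc stood at 182, 179 and 181 normalized CPM in PB, against 69.2, 67.4 and 66.3 in vehicle (log2 fold change 1.42 ± 0.034). As in 74% of all genes, the 3 sets do not overlap between groups. Hist1h1c had 49.6, 48.01 and 50.7 normalized CPM in the PB libraries, against 16.6, 13.97 and 15.8 in the vehicle libraries (log2 fold change 1.67 ± 0.068). Copies of these genes are near-identical, so counts of single members are uncertain. Replication-dependent histone mRNAs end in a stem-loop without a poly(A) tail, and the labels do not say whether libraries were selected for poly(A). Slbp, whose protein binds that stem-loop, was lower, at 31.7 ± 1.06 normalized CPM in PB and 66.3 ± 0.349 in vehicle (log2 fold change -1.06 ± 0.052).

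**Figure D5:**
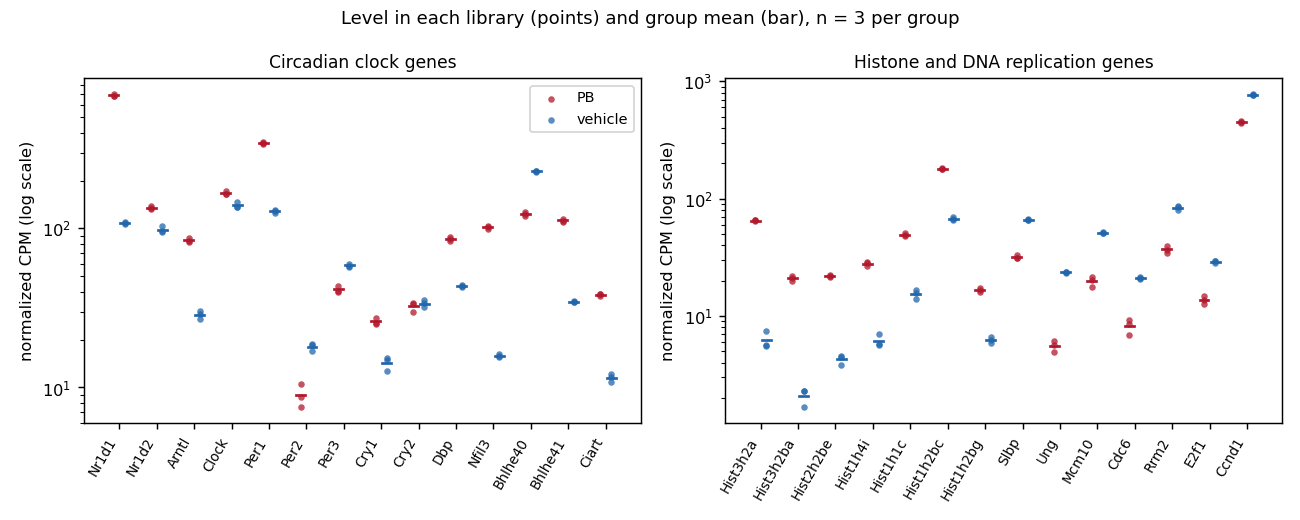
Normalized CPM (log scale) of single libraries (points) and group means (bars), PB in red left of vehicle in blue, for 14 circadian clock genes and for 14 histone and replication genes, chosen for display after their values were seen. Nr1d1, Per1, Arntl, Nfil3 and every histone gene shown lie higher in PB; Per2, Bhlhe40, Slbp and the replication genes lie lower in PB.

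Tubulin genes, a list made after their values were seen, were lower in PB. Of 12 tested, 11 fell and none rose, against 36.8% and 36.5% of all genes, with a median log2 fold change of -1.14. At least 2-fold lower were 7, against 8.49% of all genes. Tuba1c stood at 119, 129 and 123 normalized CPM in PB, against 557, 558 and 553 in vehicle (log2 fold change -2.17 ± 0.028). Tuba1b measured 305, 316 and 317 normalized CPM in PB, against 926, 902 and 927 in vehicle (log2 fold change -1.56 ± 0.024). Tubb4b had 102, 96.99 and 109 normalized CPM in the PB libraries, against 382, 383 and 385 in the vehicle libraries (log2 fold change -1.90 ± 0.030). Tubb6 fell by 2.12, while Tubb5, the most abundant beta-tubulin gene in PB, fell by only 0.34 (675 ± 10.1 normalized CPM in PB and 855 ± 13.4 in vehicle). Tubb2b did not pass. Tubulin paralogs are alike in their coding sequence, so the split of reads between them is uncertain.

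The circadian clock list holds 19 genes that form the transcriptional feedback loop of daily rhythm. Of these 12 were higher (63.2%) and 5 lower (26.3%), against 36.5% and 36.8% of all genes, with a median log2 fold change of 0.46. Nr1d1 stood at 675, 681 and 699 normalized CPM in PB, against 109, 108 and 106 in vehicle (log2 fold change 2.67 ± 0.027, adjusted p = 1.23e-68 by edgeR). Nr1d1 encodes REV-ERB alpha, a repressor in the loop. Per1 had 344, 348 and 341 normalized CPM in the PB libraries, against 130.2, 129 and 125 in the vehicle libraries (log2 fold change 1.43 ± 0.028). Nfil3 stood at 99.02, 102 and 103 normalized CPM in PB, against 15.7, 15.6 and 16.4 in vehicle (log2 fold change 2.68 ± 0.054). Arntl measured 83.5, 82.6 and 87.3 normalized CPM in PB, against 28.99, 30.1 and 26.8 in vehicle (log2 fold change 1.56 ± 0.051). Arntl encodes BMAL1, the activator that Nr1d1 is known to repress, and both were higher. Per2, the paralog of Per1, moved the other way. Per2 had 8.75, 7.49 and 10.6 normalized CPM in the PB libraries, against 18.4, 16.95 and 18.8 in the vehicle libraries (log2 fold change -1.01 ± 0.10). Bhlhe41 and Bhlhe40, related repressors, also moved apart, at 1.70 ± 0.045 and -0.89 ± 0.030. The E-box letters CACGTG, the same on both strands, occurred in 4 of 11 called higher members with a promoter (36.4%), Per1, Cry1, Bhlhe41 and Ciart, and in 965 of 9731 promoters (9.92%). Of all 16 members with a promoter, called higher or not, 5 held them (31.2%). The hour of day at which each group was collected is not given in the labels.

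Genes known as p53 targets rose in part, in organoids declared to lack Trp53. Of 23 tested, 15 rose (65.2%) and 4 fell (17.4%), against 36.5% and 36.8% of all genes, with a median log2 fold change of 0.28. Library totals leave 14 higher and 8 lower. Bbc3 stood at 44.3, 45.03 and 38.6 normalized CPM in PB, against 6.37, 7.01 and 7.97 in vehicle (log2 fold change 2.58 ± 0.086). Gadd45a had 148, 149.8 and 147 normalized CPM in the PB libraries, against 28.1, 29.6 and 29.6 in the vehicle libraries (log2 fold change 2.35 ± 0.043). Eda2r stood at 33.4, 31.01 and 31.5 normalized CPM in PB, against 5.79, 5.77 and 5.83 in vehicle (log2 fold change 2.46 ± 0.092). Bbc3, or PUMA, is a BH3-only inducer of apoptosis, Gadd45a a stress sensor that Atf4 and Ddit3 can also induce, and Eda2r a member of the TNF receptor family. Trp53inp1 rose by 1.12 ± 0.049 and Pmaip1, or NOXA, by 0.57 ± 0.034. Btg2, an antiproliferative gene that is also an immediate early gene, fell (137 ± 7.04 normalized CPM in PB and 209.6 ± 2.67 in vehicle). Cdkn1a, the p21 cell cycle inhibitor, rose by only 0.19 ± 0.046. Apoptosis regulators had 12 of 22 higher and 8 lower (median 0.16, and 9 against 9 with library totals), with Mcl1, an anti-apoptotic protein, higher by 0.26 and Apaf1 and Casp8, which start caspase cascades, lower by 1.01 and 0.73.

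Interferon-stimulated genes fell. Of 36 tested members 30 fell (83.3%) and 3 rose (8.33%), against 36.8% and 36.5% of all genes, with a median log2 fold change of -0.45. At least 2-fold lower were 5 of the 36 members, against 8.49% of all genes. Isg15 measured 24.4, 26.6 and 23.5 normalized CPM in PB, against 53.99, 53.5 and 53.9 in vehicle (log2 fold change -1.12 ± 0.059). Usp18 had 21.3, 21.4 and 21.7 normalized CPM in the PB libraries, against 46.7, 50.7 and 48.99 in the vehicle libraries (log2 fold change -1.18 ± 0.062). Isg15 is a ubiquitin-like modifier and Usp18 the protease that removes it. Parp9 stood at 31.4, 32.1 and 30.8 normalized CPM in PB, against 63.2, 67.7 and 68.2 in vehicle (log2 fold change -1.08 ± 0.053). B2m, the invariant chain of class I histocompatibility molecules, and Irf1 rose by 0.27 ± 0.024 and 0.26 ± 0.033. The letters TTTC and TTTC with 2 bases of any kind between them, the core of the interferon-stimulated response element, occurred on either strand in 9 of 22 called lower members with a promoter (40.9%) and in 298 of 9731 promoters (3.06%). The share was no lower over all members with a promoter, at 11 of 26 (42.3%). The Isg15 window (chr4:156200819-156201068, minus strand) is shown because its 3 overlapping matches, 78, 72 and 66 bases before the gene start, form one run in capitals:
Isg15: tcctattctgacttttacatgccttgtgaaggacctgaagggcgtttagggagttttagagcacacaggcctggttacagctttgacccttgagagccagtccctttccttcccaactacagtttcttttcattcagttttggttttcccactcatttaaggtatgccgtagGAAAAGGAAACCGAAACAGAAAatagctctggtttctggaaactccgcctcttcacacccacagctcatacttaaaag
Inflammatory genes of the NF-kB list did not move as one, with 14 of 30 higher and 11 lower, which library totals turn to 12 and 14. Cxcl1 had 17.4, 19.2 and 18.9 normalized CPM in the PB libraries, against 95.95, 104 and 101 in the vehicle libraries (log2 fold change -2.44 ± 0.054). Cxcl16 stood at 121, 124 and 128 normalized CPM in PB, against 55.2, 53.3 and 49.8 in vehicle (log2 fold change 1.24 ± 0.041). Cxcl1 and Cxcl2 attract neutrophils, and Cxcl2 fell by 1.37. Rel, Relb and Nfkb1, subunits of NF-kB, rose by 1.34, 0.82 and 0.53, and Ptgs2, the inducible cyclooxygenase, by 0.86.

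Squamous keratins differed by type. Basal and suprabasal genes had 10 of 22 higher and 8 lower, against 36.5% and 36.8% of all genes. Library totals turn these counts to 9 and 11. Krt4 measured 104, 109 and 107 normalized CPM in PB, against 373, 376 and 367 in vehicle (log2 fold change -1.80 ± 0.029). Krt13 had 669.5, 671 and 659 normalized CPM in the PB libraries, against 1197, 1194 and 1174 in the vehicle libraries (log2 fold change -0.83 ± 0.022). Krt4 and Krt13 are the keratin pair of the suprabasal esophagus, and both were lower in each PB library. Klf5, Pitx1 and Sox2, transcription factors of this epithelium, rose by 0.83, 0.68 and 0.66, and Trp63, the master factor of its basal cells, did not pass (333 ± 4.59 normalized CPM in PB and 338 ± 4.74 in vehicle). Simple epithelial keratins had 4 of 6 lower and none higher. Krt19 stood at 234, 242 and 234 normalized CPM in PB, against 463, 455 and 459.9 in vehicle (log2 fold change -0.96 ± 0.025). The envelope proteins Evpl and Ppl fell by 0.92 and 0.70. The stress keratins Krt6a, Krt6b, Krt16 and Krt17 rose by 0.09 to 0.31, of which library totals alone leave 2 higher and 1 lower, with Krt6a on the lower side.

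Adhesion and matrix genes rose in part. Of 21 integrins, laminins and hemidesmosome genes, 13 rose and 3 fell (median 0.17, and 9 against 7 with library totals). Lamc1 had 522, 525 and 524 normalized CPM in the PB libraries, against 295, 285 and 297 in the vehicle libraries (log2 fold change 0.84 ± 0.024). Lamc1 is a laminin gamma chain, and Itgb1, the common beta chain of integrins, rose by 0.46. Of 12 genes in the list of epithelial-mesenchymal transition, 8 rose and 4 fell, but both sides of the transition were among them: Snai2 and Twist1 (by 0.71), which promote it, and the epithelial genes Cdh1 (by 0.40), Epcam (by 0.24) and Esrp1 (by 0.51). Targets of YAP and TAZ had 14 of 25 higher (56%) and 7 lower (28%), against 36.5% and 36.8% of all genes. Library totals bring these targets to 12 higher and 9 lower, with a median of 0.09, against 0.23. Gadd45b stood at 92.4, 95.95 and 96.3 normalized CPM in PB, against 35.8, 28.7 and 33.4 in vehicle (log2 fold change 1.54 ± 0.051). Ajuba measured 391, 376 and 384 normalized CPM in PB, against 199, 194 and 209 in vehicle (log2 fold change 0.93 ± 0.027). Ctgf, the best known YAP target, was lower, at 1.72 ± 0.268 normalized CPM in PB and 4.22 ± 0.182 in vehicle. In the NOTCH list, 4 of 11 rose (36.4%) and 6 fell (54.5%), against 36.5% and 36.8% of all genes: the receptors Notch1, Notch2 and Notch3 fell by 0.27, 0.67 and 0.95, and the ligand Jag1 and the effector Rbpj rose by 1.02 and 0.64. Desmosome and adherens junction genes had 8 of 15 higher and 6 lower, which library totals turn to 5 and 7.

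Smaller metabolic groups were as follows, to be set against 36.5% higher and 36.8% lower among all genes. Polyamine genes had 8 of 10 higher and 2 lower (median 0.43). Odc1 had 513, 512 and 499 normalized CPM in the PB libraries, against 235, 248 and 235 in the vehicle libraries (log2 fold change 1.09 ± 0.025). Sat1 stood at 619, 622 and 633 normalized CPM in PB, against 256, 254 and 250.1 in vehicle (log2 fold change 1.30 ± 0.024). Odc1 makes polyamines and Sat1 breaks them down, and both rose. Ribosome biogenesis and other MYC targets were divided, with 13 of 31 higher and 14 lower, or 9 and 17 with library totals, among them Ppan (18.1 ± 1.08 normalized CPM in PB and 57.02 ± 1.78 in vehicle) and Rrs1, nucleolar factors, on the lower side. NRF2 and glutathione genes were divided too, with 10 of 30 higher and 12 lower, or 8 and 17 with library totals: Slc7a11 and the ferritin gene Ftl1 (by 0.47) rose, and Gsr, glutathione reductase, and Keap1, the NRF2 inhibitor, fell by 0.54 and 0.85. Nuclear genes of oxidative phosphorylation had 37 of 73 higher and 18 lower (median 0.09), which library totals turn to 14 against 29 (median -0.05). Mitochondrial ribosomal proteins had 30 of 77 higher and 21 lower, and 17 against 32 with library totals. Genes encoded in the mitochondrial genome were not analysed here. Metallothioneins and zinc genes had 1 of 5 higher and 3 lower, with Mt1 lower by 0.88 and the exporter Slc30a1 higher by 0.62.

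The remaining lists were divided, and stand against 36.5% higher and 36.8% lower among all genes. Of 11 xenobiotic response genes 5 rose and 4 fell, and 4 and 5 with library totals: Ahr, the aryl hydrocarbon receptor, rose by 1.02 ± 0.045, and its targets Cyp1b1 and Cyp2s1 fell by 2.06 and 1.22. By contrast, Tiparp was called higher, a call that library totals ended (log2 fold change 0.09, adjusted p = 0.0539 by edgeR). Of 11 WNT targets 5 rose and 3 fell, and 4 and 4 with library totals, with Rnf43, a feedback ligase, at 74.00 ± 3.24 normalized CPM in PB and 28.4 ± 1.28 in vehicle. Of 11 LXR genes 3 rose and 5 fell, or 3 and 8 with library totals. Of 18 cornified envelope genes 5 rose and 6 fell (2 and 8 with library totals), of 15 tight junction genes 4 rose and 6 fell (3 and 9), and of 11 matrix metalloproteinase and Timp genes 4 rose and 5 fell. Mmp13 stood highest there by fold change, at 3.22, 2.498 and 2.17 normalized CPM in PB, against 0.463, 0 and 0.297 in vehicle, a low level in both groups.

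Zinc finger genes with symbols of the Zfp series, a list made after its values were seen, were more often lower. Of the 337 members in the table, 298 were tested, of which 162 fell (54.4%) and 61 rose (20.5%), against 36.8% and 36.5% of all genes. The median log2 fold change was -0.30, and 65 fell at least 2-fold, against 8.49% of all genes. Zfp40 had 0.9797, 0.694 and 0.744 normalized CPM in the PB libraries, against 4.75, 6.15 and 5.77 in the vehicle libraries. Zfp667 stood at 0.4899, 0.278 and 0.406 normalized CPM in PB, against 3.36, 2.55 and 3.21 in vehicle. Zfp36 measured 199, 198 and 203 normalized CPM in PB, against 356, 342 and 344 in vehicle. Many Zfp genes encode DNA-binding repressors of the KRAB type, whereas Zfp36 encodes tristetraprolin, a protein that destabilises AU-rich mRNAs and is itself an immediate early gene. With the guide, the premalignant organoids had 106 of 306 members higher and 29 lower, against 29.2% and 31.3% of all genes there.

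Over the 12432 genes tested in both comparisons, 1422 of the 3612 genes higher with the guide were lower in PB (39.4%), against 36.9% of all genes, and 1266 were higher in PB (35%), against 36.5%. Of 4047 genes lower with the guide, 1652 were higher in PB (40.8%) and 1408 lower (34.8%). These shares lie near the background. Over all genes of the guide comparison, 29.2% were higher and 31.3% lower with the guide. Some lists had opposite majorities in the 2 comparisons, and others leaned the same way. Immediate early and ERK feedback genes had 7 higher and 21 lower in PB, and 22 higher and 4 lower with the guide. Integrated stress response genes had 31 higher and 3 lower in PB, and 3 higher and 20 lower with the guide. So did tRNA synthetases (19 and 0 in PB, 3 and 15 with the guide), sterol genes (20 and 2, 2 and 22), V-ATPase subunits (14 and 1, 1 and 11) and interferon-stimulated genes (3 and 30, 19 and 8). Proteasome subunits had 28 higher and 5 lower in PB, and 3 higher and 33 lower with the guide, but library totals leave no majority in PB, with 17 of 37 higher and 8 lower. DNA replication genes were lower in both, with 34 of 39 lower in PB and 30 of 39 with the guide. YAP and TAZ targets leaned higher in both (14 higher and 7 lower in PB, 20 and 4 with the guide). So, among others, did lysosomal genes (24 and 8, 18 and 9), autophagy genes (18 and 3, 11 and 3) and clock genes (12 and 5, 10 and 3). Library totals leave 12 of 25 YAP and TAZ targets higher and 9 lower in PB, and 20 of 45 lysosomal genes higher and 14 lower. They leave autophagy genes at 13 and 6 and clock genes at 10 and 6. With the factors that equalise most genes, the medians of the integrated stress list were 0.92 in PB and -0.30 with the guide. Those of the immediate early list were -0.55 in PB and 0.54 with the guide.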

How the data were processed

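RNA-seq of mouse esophageal organoids was measured as counts per gene, deposited by the authors in 1 table per experiment. The submitters' processing notes name STAR 2.6.0a, DESeq2 1.26.0 and the build mm10. The counting program, strand setting and annotation were not given in the sources used here. Each deposited table also holds the authors' log2 fold changes and adjusted p-values, used only for the comparison in the closing section. Together the deposited tables hold 18 columns of normalized values that were not used. The PB table lists 24421 gene symbols, of which 27 had been turned into dates. From the counts, genes were kept by filterByExpr (minimum count 10), scaled by TMM factors (0.952 to 0.954 in PB, 1.05 in vehicle) and tested with edgeR 4.0.16 (limma 3.58.1, R 4.3.3), by its two-sided quasi-likelihood F test over PB and vehicle only, calling genes at a Benjamini-Hochberg adjusted p under 0.05. A normalized CPM is a count scaled to the TMM-adjusted library size, and 3 counts correspond to 0.182 to 0.2 CPM in the 6 libraries. The premalignant guide effect was the mean of the sgTgfbr2_1 and sgTgfbr2_2 libraries over sgScr, in a fit of its own.

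Genes were named by a rule: Tgfbr2, Smad3, Trp53, Cdkn2a and Myc; the 10 highest and 10 lowest log2 fold changes at a mean of at least 5 normalized CPM with the groups apart; the 5 further genes with the smallest p; and, from each list, up to 5 members in its more frequent direction and 2 in the other. Genes with predicted, clone, pseudogene (-ps) or date symbols were left out of the rankings by fold change and p. The members and lists were chosen with earlier results of these data known. Positions are from GENCODE M21, which matched 12330 of 12801 tested genes (96.3%), and promoters from RefSeq. Alternatives were DESeq2 1.42.0, limma-voom, other scalings and filters, a fold threshold, a replicate block and single libraries left out. The block was tried because the groups share replicate numbers, and same-numbered libraries did not deviate together. A few genes that the rule names are not reported here.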

Additional observations from a re-analysis of the deposited data

How the results depend on the processing

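Of the counts over all genes, only the test against a fold of 1.2 (edgeR's glmTreat) moved the calls by over 1.5 times, to 2542 genes higher and 3032 lower. DESeq2 called 8434 genes, of which 8171 were called with the same sign by edgeR, and the authors' deposited table calls 4310 higher and 4124 lower. Limma-voom called 9336 genes, no filter 9725 and a filter of 1 CPM 9139. Scaling decided the direction of 2 named genes: Ltbp3, at 0.08 on the log2 scale, turned to -0.0038 with upper-quartile factors and -0.0553 with library totals, and Krt6a, at 0.09, turned to -0.0013 and -0.0529.

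With single libraries left out, 4501 to 4552 genes were higher and 4518 to 4564 lower in PB, 523 to 558 and 1112 to 1188 of them at least 2-fold. The guide comparison ranged from 3418 to 4176 higher and 3679 to 4446 lower. Of genes higher with the guide, 1246 to 1503 were lower and 1087 to 1377 higher in PB, and of genes lower with the guide, 1450 to 1762 were higher and 1225 to 1497 lower in PB. Among named genes, Id4, Bmp4, Nog and Soat1 lost their call in at least 1 of these fits. The other settings ended 60 calls of named genes, 49 of them in the test against a fold of 1.2, which none of the 4 stress keratins passed. DESeq2 ended 3, Bmp4 (adjusted p = 0.111), Nog (0.179) and Soat1 (0.0777), and library totals 5, Bmp4, Nog, Krt6b, Tiparp and Tcf7. No filter, upper-quartile factors and the replicate block ended 1 each, Nog (adjusted p = 0.104, 0.0705 and 0.0591 by edgeR).

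The replicate numbers shared by PB and vehicle do not pair the libraries: the deviations of same-numbered libraries correlated at 0.006, 0.003 and -0.01. With the replicate block, 4670 genes were higher and 4695 lower, 509 and 1089 at least 2-fold, and 9339 of the 9365 calls were also made without it with the same sign. A block in the guide comparison, added after seeing the data, gave 4238 higher and 4537 lower.

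Depth limits genes under about 1 CPM, such as the L-type channel genes, and 3 libraries per group of unstated independence limit what the small standard errors stand for.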
